A study of Ficus obtusifolia with 4 samples.

Results

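Genes of the lignin branch of phenylpropanoid metabolism, together with the laccases, were followed across 4 flower libraries of the fig Ficus obtusifolia. Members were all transcripts whose description, taken from protein matches in other species, contained one of a set of words for enzymes of the branch, among them cinnamoyl, cinnamyl, caffeoyl, ferulate, hydroxycinnamoyl, laccase and dirigent. The rule found 76 of 54550 transcripts, with 0 matches to ferulate and 1 to dirigent. By enzyme they included 16 hydroxycinnamoyl-CoA:shikimate/quinate hydroxycinnamoyltransferases (HCT), 4 N-hydroxycinnamoyl/benzoyltransferases, 6 caffeoyl-CoA O-methyltransferases (CCoAOMT), 7 cinnamoyl-CoA reductases (CCR), 14 cinnamyl alcohol dehydrogenases (CAD), 20 laccases and 1 dirigent domain protein.

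Flowers came from bagged syconia, the closed inflorescences of figs, of a single wild tree. Pollinated syconia were collected 24 hours after 1 egg-laying female (foundress) of the pollinating wasp Pegoscapus hoffmeyerii had been let in, and receptive syconia before any foundress was introduced. Within each stage, flowers were sorted by position alone, gall flowers lying nearest the lumen and seed flowers nearest the wall, and many flowers from several syconia were pooled. The 4 libraries were therefore pollinated gall, pollinated seed, receptive gall and receptive seed flowers, with 1 library each, so no difference below has a replicate check. Pollinated gall flowers held wasp eggs as well as plant tissue. In such pooled tissue, fewer cells of a type and less RNA per cell cannot be told apart.

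Lignin is the phenolic polymer that stiffens secondary cell walls. Its building blocks, the monolignols, are made from phenylalanine through p-coumaroyl-CoA. HCT joins the p-coumaroyl group to shikimate so that the ring can be hydroxylated, CCoAOMT adds a methyl group, CCR reduces the CoA ester to an aldehyde and CAD reduces the aldehyde to the alcohol. Laccases, copper oxidases of the cell wall, and peroxidases oxidise monolignols so that they couple, and dirigent proteins steer the coupling in the formation of lignans. Several of these enzymes also belong to families with other substrates, so a name given by similarity does not fix what a transcript makes.

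The libraries held 11584069 to 58969477 mapped reads, the receptive seed library being the smallest. Members took 0.307% of the mapped reads in pollinated gall flowers, 0.241% in pollinated seed flowers, 0.355% in receptive gall flowers and 0.237% in receptive seed flowers. Reads were found on 75, 67, 70 and 55 of the 76 members in the same order of libraries, and on 54 members in all 4. RPKM divides the reads of a transcript by its length and by the size of its library. A call needed more than 20 RPKM in any of the 4 libraries, which 30 members reached. Their median length was 1310.5 bp, against 451.5 bp for the members at or below that level. A further 30 members had a mean RPKM under 1, and 12 members were shorter than 300 bp and may be fragments of longer genes, so that more than 1 locus can belong to the same gene. A search for flower marker words (agamous, sepallata, pistillata, crabs claw, agl11 and apetala) found 13 transcripts, none for pistillata or agl11. Many were described only as agamous-like. All 13 had reads in every library.

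Differences were tested with Kal's Z-test on each transcript's share of the summed RPKM, 2-sided, with Benjamini-Hochberg adjustment over all transcripts, and were called at an adjusted p under 0.05. The test compares 2 libraries and not 2 conditions. Its p rests on RPKM and not on reads, so a ratio whose counting interval lies far from 1 may still not be called. Summed RPKM was 1193080 in receptive seed flowers and 965384 to 991149 in the other libraries, so the tested share of RPKM makes the receptive gall over receptive seed ratio 1.20 times larger, and the pollinated seed over receptive seed ratio 1.23 times larger, than the plain ratios printed here. Each ratio is given with an exact conditional binomial 95% interval, which covers counting error only.

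**Figure D1:**
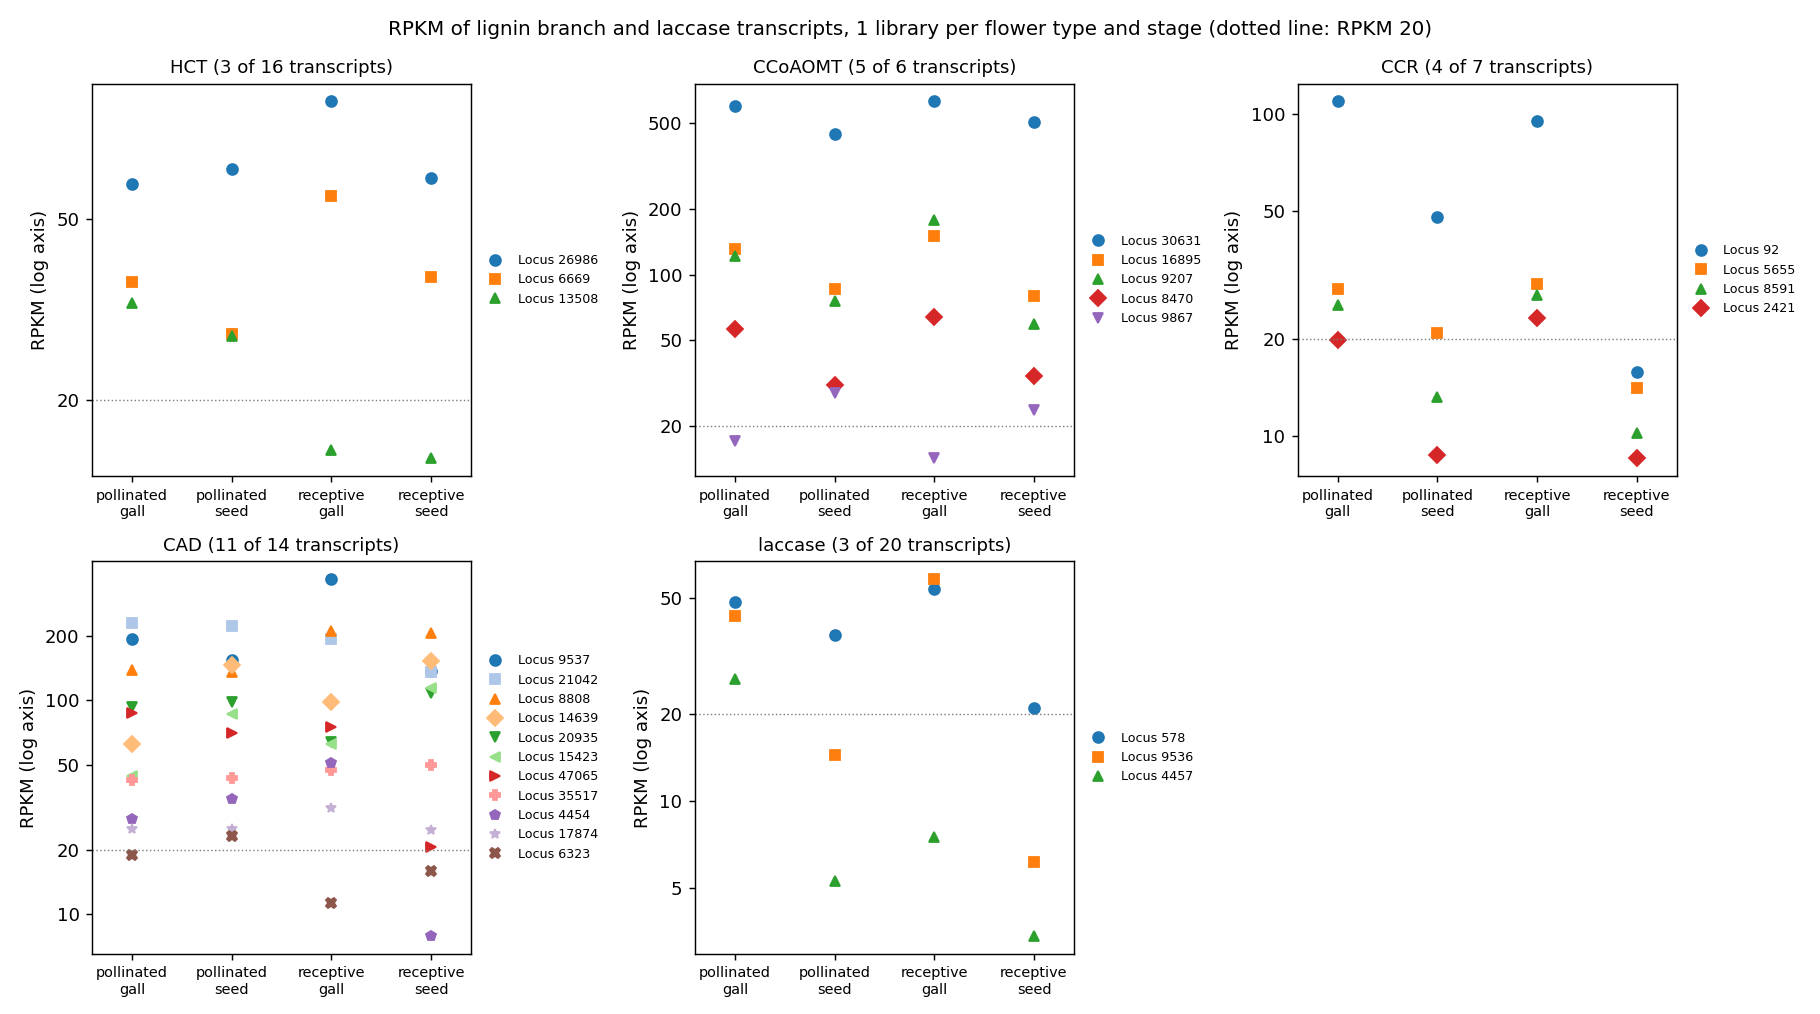
RPKM (log axis) of 26 members above an RPKM of 20 in at least 1 library, in 5 enzyme families, in pollinated gall, pollinated seed, receptive gall and receptive seed flowers (1 library each, 1 point per transcript). The 4 CCR transcripts and 3 laccases plotted were higher in the gall than in the seed library at both stages and the CAD transcripts plotted lay on both sides, while transcripts below the minimum, not shown, included CCR and laccase transcripts lower in gall flowers (Locus 28292 and Locus 1334).

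Of the 30 members above the minimum, 18 were called higher and 0 lower in receptive gall than in receptive seed flowers. Over all 10434 transcripts above the minimum, 23.6% were called higher and 17.6% lower. The 18 included 2 of 3 HCT, 4 of 5 CCoAOMT, 4 of 4 CCR, 4 of 11 CAD and 2 of 3 laccase transcripts above the minimum. A transcript could pass the minimum through a gall library alone, so these shares of each family are partly set by the minimum. The absence of lower calls depended on the form of the test. With Kal's Z-test on read counts, which called 39.7% of all transcripts above the minimum higher and 49.5% lower, 21 members were higher and 6 lower. The lower ones included 4 CAD transcripts (Locus 14639, Locus 15423, Locus 20935 and Locus 6323) and 1 CCoAOMT transcript (Locus 9867). TMM scaling, which trims extreme transcripts before libraries are matched in depth, gave 17 higher and 1 lower (Locus 15423), beside 22.4% and 18.7% of all, and Locus 15423 was also called lower with the length trend removed or reads thinned to the smallest library. When the trend of the ratio with transcript length was removed, 13 of the 18 calls were kept, and those of Locus 26986, Locus 6669, Locus 8470, Locus 5655 and Locus 2421 were lost. In pollinated flowers 7 members were called higher and 2 lower in gall than in seed flowers, beside 9.38% higher and 6.69% lower over all transcripts above the minimum. With TMM scaling the split was 12 higher and 1 lower, beside 12.1% and 4.16% of all. Reads of all members together were 1.27 times as frequent in pollinated gall as in pollinated seed flowers (1.26 to 1.29) and 1.49 times as frequent in receptive gall as in receptive seed flowers (1.48 to 1.51). The pollinated ratio divided by the receptive ratio was 0.853 (0.839 to 0.867), with an interval for counting error. For HCT, CCoAOMT, CCR, CAD and laccase reads it was 0.643 to 0.872.

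Over the 46 members with a mean RPKM of at least 1, the median log2 ratio of receptive gall over receptive seed was 0.62, against -0.23 over the 25806 transcripts with such a mean. The ratio was above 1 for 34 of the 46 members. For pollinated gall over pollinated seed the median log2 ratio was 0.40, against -0.14 over all transcripts of that mean, and 30 of the 46 members had a ratio above 1. TMM moved the log2 ratio of every transcript by 0.19 in pollinated and by 0.23 in receptive flowers. The log2 medians of members then stood at 0.59 in pollinated flowers, against 0.05 over all transcripts, and at 0.85 in receptive flowers, against -0.01.

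**Figure D2:**
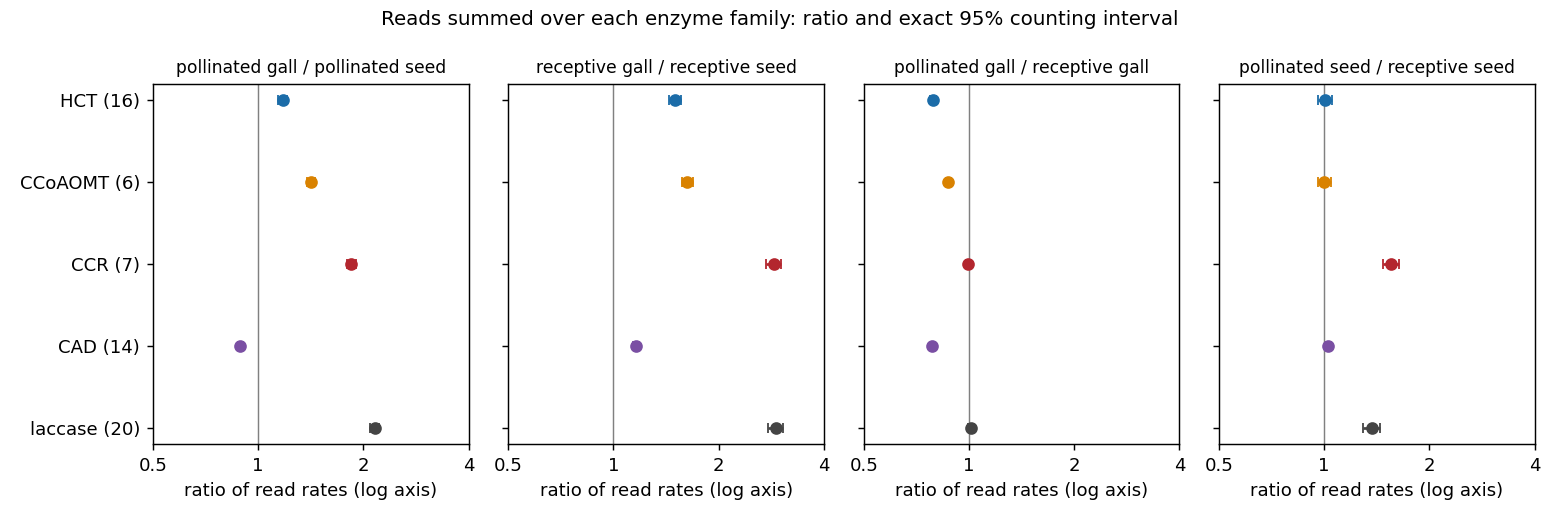
Ratio of read rates (log axis) for reads summed over each of 5 enzyme families, with exact 95% counting intervals, in the 4 comparisons, and number of transcripts in parentheses. CCR and laccase had the largest gall over seed ratios, 1.85 and 2.15 in pollinated and 2.87 and 2.91 in receptive flowers, and the pollinated CAD ratio of 0.890 became 1.01 with TMM scaling.

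At the entry to the branch, HCT reads were 1.18 times as frequent in pollinated gall as in pollinated seed flowers (95% interval 1.14 to 1.21) and 1.50 times as frequent in receptive gall as in receptive seed flowers (1.44 to 1.56). Locus 26986 carried 35.0% of HCT reads, but its mean similarity to its matches was only 54.0%. Its RPKM was 60.0 in pollinated gall, 64.5 in pollinated seed, 90.9 in receptive gall and 61.7 in receptive seed libraries. The receptive gall library alone stood above the other libraries, 1.47-fold higher than receptive seed flowers (1.38 to 1.57, Kal's Z-test adjusted p = 0.00523). Locus 6669, one of the 2 members with the GO term shikimate O-hydroxycinnamoyltransferase activity, had an RPKM of 36.4, 27.9, 56.2 and 37.3 in the same order of libraries. It was also highest in receptive gall flowers, 1.51-fold above receptive seed flowers (Kal's Z-test adjusted p = 0.0370), a call that was lost with TMM scaling and with the length trend removed.

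Locus 13508, the other transcript with that term, had an RPKM of 32.7 and 27.7 in pollinated gall and seed flowers and of 15.6 and 14.9 in receptive gall and seed flowers. Both pollinated libraries were above both receptive ones, and the gall over seed ratios were 1.18 and 1.04. Neither the 2.10-fold pollinated over receptive ratio in gall flowers (1.98 to 2.23) nor the 1.86-fold ratio in seed flowers passed Kal's Z-test after adjustment (adjusted p = 0.225 and 0.0882). The Z-test on read counts called both (adjusted p = 1.79e-139 and 1.08e-23). The 13 HCT transcripts below the minimum included 2 named for their place. Locus 37078 had 11 and 3 reads in pollinated gall and seed flowers and 0 in both receptive libraries. Locus 26695 had 7 and 10 reads in pollinated and receptive gall flowers and 0 in both seed libraries. Locus 20110, chosen after its values were seen, went the other way with 24, 16, 19 and 53 reads in pollinated gall, pollinated seed, receptive gall and receptive seed flowers. Its RPKM was 0.300, 0.533, 0.275 and 3.38, highest in the library with fewest reads in all. Its GO terms included tyramine N-feruloyltransferase and anthranilate N-benzoyltransferase activity, so its placing with HCT rests on its description alone.

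The 4 N-hydroxycinnamoyl/benzoyltransferases, enzymes that in carnation make the phytoalexin dianthramide rather than monolignols, were all rare. They summed to 92, 16, 50 and 20 reads in pollinated gall, pollinated seed, receptive gall and receptive seed flowers. Locus 13541 had 42, 8, 30 and 2 of these and Locus 19639 had 16, 7, 8 and 2. Locus 34592 had 22, 1, 2 and 12 reads, so that it was highest in one gall and one seed library. At 1 or 2 reads in a library its ratios rest on very few counts.

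Of 5 CCoAOMT transcripts above the minimum, 4 had their higher RPKM in gall flowers at both stages. Locus 30631, a 213 bp fragment with 28.7% of the family's reads, had an RPKM of 599 in pollinated gall, 448 in pollinated seed, 630 in receptive gall and 506 in receptive seed libraries. Both gall libraries exceeded both seed libraries, and it was called 1.34-fold higher in pollinated gall (1.28 to 1.41, Kal's Z-test adjusted p = 0.000100) and 1.24-fold higher in receptive gall than in seed flowers (1.17 to 1.32, adjusted p = 3.04e-10). Locus 16895 had an RPKM of 131, 85.4, 151 and 79.9 in the same order. The gall over seed ratios were 1.53 in pollinated flowers (Kal's Z-test adjusted p = 0.0498, lost when reads were thinned to the smallest library or the length trend was removed) and 1.89 in receptive flowers (adjusted p = 2.74e-08).

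Locus 9207 had the widest gap of the CCoAOMT transcripts in receptive flowers. Its RPKM was 122 in pollinated gall, 75.2 in pollinated seed, 179 in receptive gall and 59.3 in receptive seed libraries. The ratio was 1.62 in pollinated flowers (1.50 to 1.74, Kal's Z-test adjusted p = 0.0247) and 3.03 in receptive flowers (2.72 to 3.38, adjusted p = 1.37e-18). Locus 8470, described as similar to an Arabidopsis CCoAOMT-like gene and chosen after its values were seen, had an RPKM of 56.4, 31.0, 63.4 and 34.2. Its gall over seed ratio was 1.82 in pollinated flowers, not called (Kal's Z-test adjusted p = 0.139) except with TMM scaling or the Z-test on read counts, and 1.85 in receptive flowers (adjusted p = 0.00144). Locus 9867, also chosen after its values were seen, was the exception with an RPKM of 17.1, 28.4, 14.2 and 23.6. Its gall over seed ratio lay below 1 at both stages, at 0.604 in pollinated (0.556 to 0.656) and 0.601 in receptive flowers (0.535 to 0.676). It was called lower, at both stages, only with the Z-test on read counts.

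CCR makes the first step committed to monolignols, and each of its 4 transcripts above the minimum was called higher in receptive gall than in receptive seed flowers. Locus 8591 passed the minimum only in the gall libraries and Locus 2421 only in the receptive gall library. The minimum thus partly fixed this count. Reads of the whole family were 1.85 times as frequent in pollinated gall as in pollinated seed flowers (1.79 to 1.90) and 2.87 times as frequent in receptive gall as in receptive seed flowers (2.74 to 3.02). Locus 92, with 48.3% of these reads and a mean similarity of 93.6% to its matches, had an RPKM of 110 in pollinated gall, 48.2 in pollinated seed, 95.6 in receptive gall and 15.9 in receptive seed libraries. The gall libraries were alike, and the seed libraries were lower and unlike each other. Gall over seed ratios were 2.28 in pollinated flowers (2.18 to 2.38, Kal's Z-test adjusted p = 5.13e-05) and 6.02 in receptive flowers (5.45 to 6.68, adjusted p = 5.58e-16). The pollinated over receptive ratio was 3.04 in seed flowers (2.73 to 3.39, adjusted p = 3.79e-05), and 1.15 in gall flowers with no call. The pollinated gall over seed ratio was 0.378 times the receptive one (0.339 to 0.422, counting error only).

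Without Locus 92 the gall over seed ratio of CCR reads was 1.52 in pollinated and 1.98 in receptive flowers. Locus 5655 had an RPKM of 28.7, 20.9, 29.7 and 14.1 in pollinated gall, pollinated seed, receptive gall and receptive seed flowers and a receptive gall over seed ratio of 2.11 (1.82 to 2.44, Kal's Z-test adjusted p = 0.0271). Locus 8591 had an RPKM of 25.6, 13.2, 27.5 and 10.3 and a receptive ratio of 2.68 (2.29 to 3.16, Kal's Z-test adjusted p = 0.00805). Both were highest in the receptive gall library, closely followed by the pollinated gall library. Locus 2421, chosen after its values were seen, had an RPKM of 19.8, 8.73, 23.3 and 8.55, with ratios of 2.27 in pollinated flowers, not called, and 2.72 in receptive flowers (Kal's Z-test adjusted p = 0.0170). The 3 CCR transcripts below the minimum, too low in RPKM for a call, did not share one direction. Locus 28292, chosen after its values were seen and carrying the GO term cinnamoyl-CoA reductase activity, had an RPKM of 6.34, 10.01, 7.89 and 12.8 in the same order, with gall over seed ratios of 0.633 in pollinated (0.571 to 0.703) and 0.617 in receptive flowers (0.549 to 0.695). Both its gall libraries were below both seed libraries. Locus 16149, chosen likewise, had gall over seed ratios of 0.665 in pollinated (0.585 to 0.757) and 1.99 in receptive flowers (1.61 to 2.48). For 3 of the 7 CCR transcripts the deposited GO terms included dihydrokaempferol 4-reductase activity, an enzyme of the related flavonoid branch. They were Locus 16149 and the called Locus 5655 and Locus 8591, and none of them carried the term cinnamoyl-CoA reductase activity.

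CAD catalyses the last step to the alcohols, and its members differed in direction among themselves. Its reads were 1.16 times as frequent in receptive gall as in receptive seed flowers (1.14 to 1.18). In pollinated gall they were 0.890 times as frequent as in pollinated seed flowers (0.876 to 0.903), a ratio that turned to 1.01 with TMM scaling. Of 11 transcripts above the minimum, 0 were called higher and 2 lower in pollinated gall, and 4 higher and 0 lower in receptive gall, than in the seed flowers of the same stage. GO terms included cinnamyl-alcohol dehydrogenase activity for 7 of the 14, mannitol dehydrogenase activity for 5 and dihydrokaempferol 4-reductase activity for 2.

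Locus 9537 reached the highest RPKM of the CAD transcripts. Its RPKM was 194 in pollinated gall, 155 in pollinated seed, 368 in receptive gall and 137 in receptive seed libraries. Only the receptive gall library stood out. It was called 2.69-fold higher in receptive gall than in receptive seed flowers (2.53 to 2.87, Kal's Z-test adjusted p = 2.17e-33) and lower in pollinated gall than in receptive gall flowers, with a ratio of 0.526 (0.511 to 0.541, adjusted p = 2.44e-10). These comparisons share the receptive gall library. Locus 4454 had an RPKM of 27.9, 34.7, 51.2 and 7.93 in the same order of libraries, and here the receptive seed library was far below the rest. The receptive gall over seed ratio was 6.46 (5.43 to 7.75, Kal's Z-test adjusted p = 5.82e-09) and the pollinated over receptive ratio in seed flowers 4.38 (3.65 to 5.29, adjusted p = 5.64e-05), both against that library.

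Locus 47065, a 360 bp transcript, was likewise low in the receptive seed library alone, with an RPKM of 87.1, 70.3, 74.9 and 20.6. Its receptive gall over seed ratio was 3.63 (2.92 to 4.57, Kal's Z-test adjusted p = 2.78e-09) and its pollinated over receptive ratio in seed flowers 3.41 (2.71 to 4.33, adjusted p = 2.93e-08). Locus 21042, with a mean similarity of 93.1% to its matches, had an RPKM of 231, 224, 194 and 135. It was called 1.44-fold higher in receptive gall than in receptive seed flowers (Kal's Z-test adjusted p = 1.42e-05) and 1.66-fold higher in pollinated seed than in receptive seed flowers (adjusted p = 1.92e-09).

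Locus 8808, which carried most CAD reads (22.4%), differed between stages more than between flower types. Its RPKM was 139 and 136 in pollinated gall and seed flowers, and 211 and 206 in receptive gall and seed flowers. The ratio of pollinated over receptive was 0.659 in gall flowers (0.644 to 0.676, Kal's Z-test adjusted p = 0.0127) and 0.662 in seed flowers (0.633 to 0.693), where it was not called (adjusted p = 0.362) except with TMM scaling, the length trend removed or the Z-test on read counts. Locus 14639 had its lower RPKM in gall flowers at both stages. Its RPKM was 62.5 in pollinated gall, 146 in pollinated seed, 98.2 in receptive gall and 152 in receptive seed libraries. It was called lower in pollinated gall than in pollinated seed flowers, with a ratio of 0.428 (0.410 to 0.446, Kal's Z-test adjusted p = 7.79e-07), and its receptive ratio of 0.646 was not called (adjusted p = 0.269).

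Locus 15423 also had its lower RPKM in gall flowers, with an RPKM of 44.1, 86.5, 62.7 and 114. Both gall libraries were below both seed libraries, and the pollinated ratio of 0.510 (0.483 to 0.539) was called (Kal's Z-test adjusted p = 0.00919). With TMM scaling that call was lost and the receptive ratio of 0.552 (adjusted p = 0.0693 without TMM) was called instead. Locus 20935, chosen after its values were seen, had an RPKM of 92.7, 98.6, 64.2 and 108 with no call outside the Z-test on read counts. Only 55.7% of its reads mapped uniquely, the lowest share of any member. The lightly expressed Locus 10730, also chosen after its values were seen, had an RPKM of 7.06, 1.30, 8.02 and 1.51 in pollinated gall, pollinated seed, receptive gall and receptive seed flowers. Its gall over seed ratio was 5.42 in pollinated (3.90 to 7.75) and 5.33 in receptive flowers (3.51 to 8.47), too low in RPKM for a call.

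**Figure D3:**
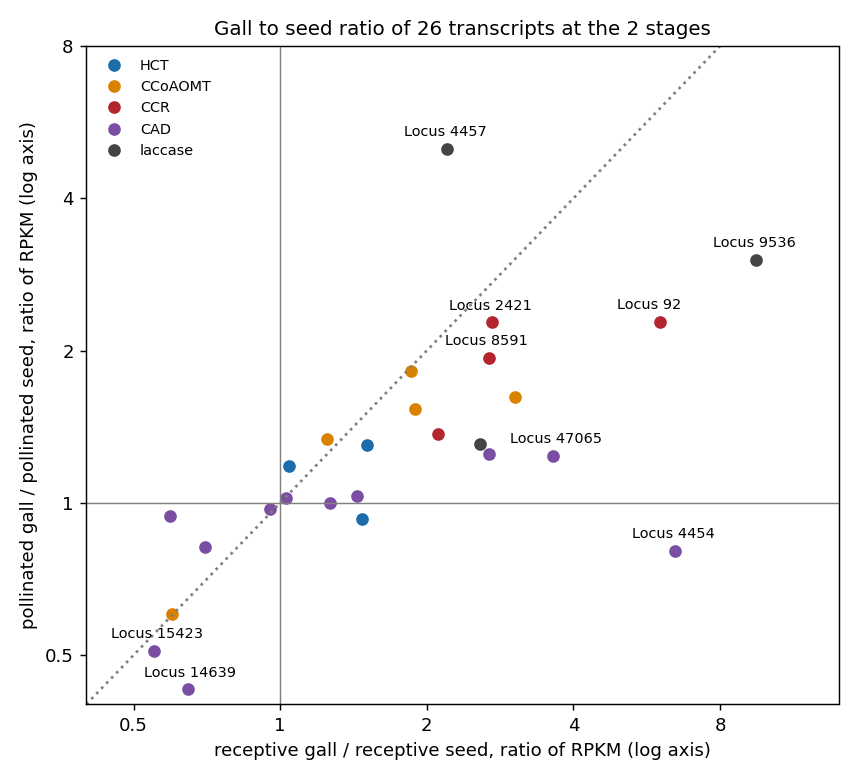
Ratio of gall over seed RPKM in pollinated flowers (vertical, log axis) against the same ratio in receptive flowers (horizontal, log axis) for 26 members, coloured by family, with a dotted line of equal ratios. Locus 9536 and Locus 92 lie far right below the line with pollinated ratios of 3.02 and 2.28, Locus 4457 lies above it at 5.01, and Locus 4454 has a ratio of 0.804 in pollinated flowers, against 6.46 in receptive flowers.

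Laccase reads were 2.15 times as frequent in pollinated gall as in pollinated seed flowers (2.09 to 2.22) and 2.91 times as frequent in receptive gall as in receptive seed flowers (2.77 to 3.05). Most came from 3 of the 20 transcripts, Locus 9536 alone holding 43.1%. Locus 9536 (laccase 1a) had an RPKM of 43.5 in pollinated gall, 14.4 in pollinated seed, 58.2 in receptive gall and 6.14 in receptive seed libraries. It had the largest receptive gall over seed ratio of all called members, 9.48 (8.43 to 10.7, Kal's Z-test adjusted p = 1.45e-11), and a pollinated ratio of 3.02 (2.85 to 3.21, adjusted p = 0.00485). Both gall libraries were above both seed libraries, and the pollinated ratio was 0.319 times the receptive one (0.280 to 0.363, counting error only). Without Locus 9536 the laccase ratio was 1.82 in pollinated and 1.63 in receptive flowers.

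Locus 578, also laccase 1a and, with Locus 9536, one of the 2 members with the GO term secondary cell wall biogenesis, had an RPKM of 48.7, 37.2, 53.9 and 20.9. The receptive gall over seed ratio was 2.58 (2.38 to 2.80, Kal's Z-test adjusted p = 6.77e-05). The pollinated gall over seed ratio of 1.31 was not called, and the pollinated over receptive ratio of 1.78 in seed flowers (adjusted p = 0.0431) lost its call with uniquely mapped reads, TMM scaling, the length trend removed, thinned reads, a ratio of at least 2 and edgeR's exact test. Locus 4457 (laccase 90a) differed from both in its highest library. Its RPKM was 26.4 in pollinated gall, 5.27 in pollinated seed, 7.51 in receptive gall and 3.41 in receptive seed libraries. It was called 5.01-fold higher in pollinated gall than in pollinated seed flowers (4.57 to 5.50, Kal's Z-test adjusted p = 0.00645) and 3.51-fold higher in pollinated gall than in receptive gall flowers (3.33 to 3.71, adjusted p = 0.0305), and both calls rest on the pollinated gall library.

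**Figure D4:**
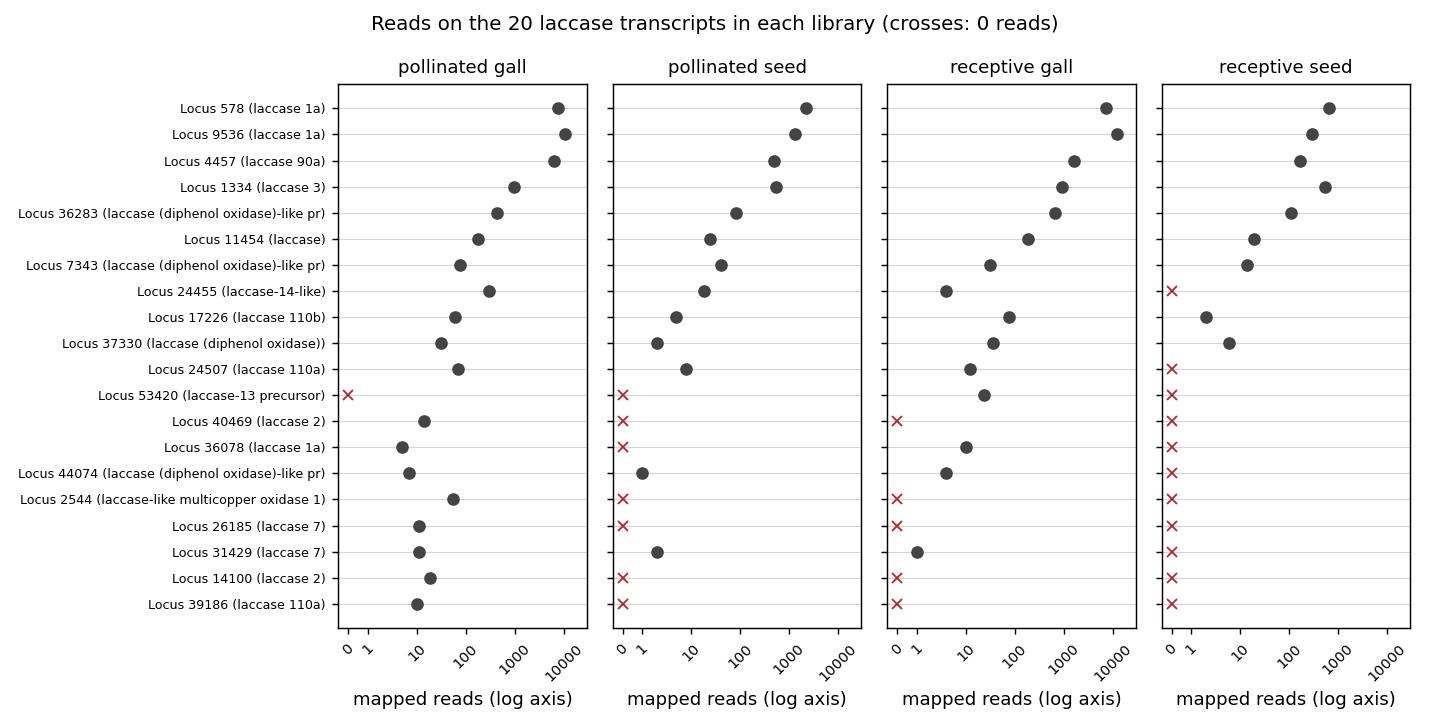
Mapped reads (log axis, crosses for 0 reads) on each of the 20 laccase transcripts in pollinated gall, pollinated seed, receptive gall and receptive seed flowers (1 library each, not scaled for depth). Locus 578, Locus 9536 and Locus 4457 lead, and 5 transcripts had reads in the pollinated gall library alone.

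The other 17 laccases stayed below the minimum, which Locus 9536 and Locus 4457 passed only in gall libraries. Locus 1334 (laccase 3), chosen after its values were seen, had an RPKM of 5.54, 8.12, 6.01 and 15.7, highest in receptive seed flowers. Its gall over seed ratio was 0.683 in pollinated (0.614 to 0.760) and 0.383 in receptive flowers (0.344 to 0.427). Locus 24455 (laccase-14-like), chosen likewise, had 299 reads in pollinated gall, 18 in pollinated seed, 4 in receptive gall and 0 in receptive seed libraries. Locus 36078 had 5 and 10 reads in pollinated and receptive gall flowers and 0 in both seed libraries. Locus 53420 (laccase-13 precursor) had 24 reads in receptive gall flowers and 0 elsewhere.

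Reads in pollinated gall flowers alone, at least 10 of them, were found for 5 laccases and no other member. They were 56 reads on Locus 2544 (laccase-like multicopper oxidase 1), 19 on Locus 14100, 14 on Locus 40469, 11 on Locus 26185 and 10 on Locus 39186. Where no read was seen, up to 3 reads remain possible, or for a transcript of 1 kb an RPKM of 0.135 in pollinated seed, 0.0588 in receptive gall and 0.259 in receptive seed libraries. With 3 reads in place of 0, Locus 2544 was 7.01-fold higher in pollinated gall than in pollinated seed flowers. Against receptive gall flowers it was 16.2-fold higher. The exact counting intervals of these ratios reached down to 5.51 and 12.7. These 5 were 25% of the laccases and 6.58% of the members, beside 24.1% of the 30166 transcripts with a description. The same library held 45219 reads on 490 transcripts described with the name of a hymenopteran genus, against 23 in pollinated seed, 24 in receptive gall and 2 in receptive seed libraries, and 452 reads on 7 transcripts with insect protein names, against 0 in the others. The part of wasp RNA in the laccase reads was not tested.

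The dirigent domain transcript, Locus 26362, was barely expressed, with 12, 14, 9 and 12 reads in pollinated gall, pollinated seed, receptive gall and receptive seed flowers. Its RPKM was 0.593, 1.84, 0.514 and 3.02, so both gall libraries were below both seed libraries. The gall over seed ratio was 0.322 in pollinated (0.136 to 0.750) and 0.170 in receptive flowers (0.0633 to 0.440).

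Between stages few members were called. In pollinated gall over receptive gall flowers, 1 member was called higher (Locus 4457) and 2 lower (Locus 9537 and Locus 8808), beside 8.38% higher and 6.66% lower over all 10434 transcripts above the minimum. In pollinated seed over receptive seed flowers, 5 were called higher and 1 lower, beside 18.3% and 9.77%. The 5 were Locus 92, Locus 21042, Locus 47065, Locus 4454 and Locus 578. With TMM scaling the split in seed flowers was 4 higher and 3 lower, beside 10.2% and 14.5% of all. Median log2 ratios of the 46 members were -0.16 in gall flowers, against 0.04 over all transcripts, and 0.08 in seed flowers, against -0.02. Each stage comparison shares its libraries with a gall over seed comparison, so the values are set side by side and are no separate evidence.

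Of the 46 members with a mean RPKM of at least 1, 9 had their highest RPKM in pollinated gall, 5 in pollinated seed, 23 in receptive gall and 9 in receptive seed libraries. Receptive gall thus held the highest value for 50% of them, beside 19.6% of all 25806 transcripts of such a mean, among which receptive seed flowers held the highest value for 37.5%. The lowest value fell in receptive seed flowers for 47.8% of the 46 members, beside 32.2% of all.

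Both flower types and both stages were also fitted together in an additive model (edgeR quasi-likelihood F-test, TMM scaling, Benjamini-Hochberg adjustment). Spread in this model comes only from departures from additivity, with 1 residual degree of freedom, and edgeR shares it across transcripts. Each SE below was derived from the F statistic and is not the spread of that transcript alone. Of 46 members tested, 0 were called for gall over seed, and 0% of the 21491 transcripts were called higher and 0% lower. At an unadjusted p under 0.05 there were 16 members, all higher in gall flowers, and 13.6% of all transcripts. The lowest edgeR adjusted p among members was 0.145 for Locus 9536, with a log2 difference of 2.54 ± 0.50 (SE). Locus 92 had a log2 difference of 2.01 ± 0.46 (SE, edgeR adjusted p = 0.161). DESeq2 on the same model called 5 members higher in gall flowers, Locus 9536, Locus 92, Locus 4457, Locus 10730 and Locus 2421, among 1103 transcripts in all. For pollinated over receptive 0 members were called, beside 0.0884% of transcripts higher and 0.0465% lower, with 5 members at an unadjusted p under 0.05 in edgeR, 4 of them higher, beside 5.88% of all transcripts, and 0 called by DESeq2.

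Other genes of the pathway, which were not members, were counted in the same way, so only transcripts above the RPKM minimum could be called. Over all transcripts above it, 9.38% were called higher and 6.69% lower in pollinated gall over pollinated seed flowers. In receptive gall over receptive seed flowers the shares were 23.6% and 17.6%, and those between stages are given above. Phenylalanine ammonia-lyase, which feeds phenylalanine into the pathway, had 4 transcripts, of which 3 were fragments of 171 to 173 bp. In pollinated gall over pollinated seed flowers 3 were called higher and 0 lower, with a read ratio of 3.47, and in receptive gall over receptive seed flowers all 4 were higher, with a read ratio of 23.4. All 8 transcripts of cinnamate 4-hydroxylase, the next enzyme, were called higher in gall flowers at both stages, with read ratios of 2.93 in pollinated and 4.30 in receptive flowers. Of 25 transcripts of 4-coumarate:CoA ligase, 16 were above the minimum. Of these, 3 were called higher in pollinated and 14 in receptive gall flowers, and 0 lower at either stage. In pollinated over receptive gall flowers these enzymes had 0 higher and 3 lower (phenylalanine ammonia-lyase), 1 higher and 2 lower (cinnamate 4-hydroxylase) and 0 higher and 3 lower (4-coumarate:CoA ligase). In pollinated over receptive seed flowers they had 3 higher and 0 lower, 5 higher and 1 lower, and 5 higher and 0 lower in the same order.

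The single transcript of p-coumaroyl shikimate 3-hydroxylase (Locus 166), which acts on the HCT product, had an RPKM of 62.0 in pollinated gall, 67.7 in pollinated seed, 88.1 in receptive gall and 37.8 in receptive seed libraries. It was called higher in receptive gall, and in pollinated seed, than in receptive seed flowers. Coniferylaldehyde 5-hydroxylase (Locus 46415), which leads to syringyl lignin, had an RPKM of 1.14, 2.50, 1.24 and 0.667 and was below the minimum. Of 54 peroxidases, 29 were above the minimum. In pollinated gall 15 were called higher and 3 lower, and in receptive gall 18 higher and 3 lower, than in seed flowers of the stage. Between stages 8 were higher and 6 lower in gall flowers, and 17 higher and 2 lower in seed flowers, of the pollinated stage. Phenylcoumaran benzylic ether reductase of the lignan branch (Locus 24849) was higher in gall flowers at both stages, with read ratios of 4.67 in pollinated and 4.07 in receptive flowers. Chalcone synthase, which draws p-coumaroyl-CoA into flavonoids instead, had 60 transcripts, 38 of them above the minimum. Of these, 35 were called higher in pollinated and 36 in receptive gall flowers, and 0 lower. Of 3 cellulose synthase A transcripts, only 1 was above the minimum. It was called higher in receptive gall flowers and was not called in pollinated gall flowers.

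Among the 14 members with the GO term lignin biosynthetic process, 12 were above the minimum. In pollinated gall over pollinated seed flowers 4 of them were called higher and 1 lower, and in receptive gall over receptive seed flowers 8 higher and 0 lower. The term lignin catabolic process stood on 13 laccases, of which only 3 were above the minimum. Of these 3, 2 were called higher in pollinated and 2 in receptive gall flowers.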

How the data were processed

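RNA selected with poly(T) was sequenced from 4 pooled flower libraries. Per the submitters' processing notes, FastQC 0.10.0 and Trimmomatic 0.22 were used, removing the first 10 bp of reads of 100 bp and discarding reads under 75 bp. The authors made 1 assembly from the reads of the 4 libraries, with the longest transcript standing for each locus, and mapped reads to it. The counts of all mapped reads and the counts of uniquely mapped reads were used as deposited by the authors. The RPKM, deposited by the authors, was rebuilt from counts and lengths to within 0.000500. Descriptions, lengths and GO terms came from the deposited table, and 8 further columns that repeat others were not used. No sequence was analysed here.

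Kal's Z-test, the test of the study, was run on all transcripts in Python 3.11.15, and the additive model in R 4.3.3 with edgeR 4.0.16 (CPM of at least 1 in at least 2 libraries) and DESeq2 1.42.0. Both were also run on simulated data with little or no spread between samples. That checked the calculation only and says nothing about how they perform on unreplicated flower libraries. Intervals cover counting error only, and both reads of a pair may be counted. A count of 0 was set to 3 reads for a bound.

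Named transcripts were the 3 with the highest mean RPKM per family, the 3 called members with the most extreme ratios, upward and downward, of every comparison (at least 10 reads in both libraries), and members with at least 10 reads in the libraries of one flower type or stage and 0 in the other. Others are marked where named. Results for 1 further enzyme family of the members are not reported here, although counts over all members include it. Members and lists were chosen with earlier results of these data known. The split of benzoyltransferases from HCT and the words for p-coumaroyl shikimate 3-hydroxylase and for peroxidases were set after descriptions were seen. Alternatives were Z on counts, uniquely mapped reads, RPKM minimums, a ratio of at least 2, TMM, length, thinning and edgeR's exact test.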

Additional observations from a re-analysis of the deposited data

Results flagged for a closer look

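In 12 cases the same contrast went one way in one pair of libraries and the other way in the other pair, each beyond its counting interval. With 1 library per flower type and stage none of these differences was tested against the variation between samples. In 11 of the 12 the directions stayed opposite with TMM scaling, the exception being Locus 26986.

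For gall over seed, the CAD transcript Locus 4454 had a ratio of 0.804 in pollinated and 6.46 in receptive flowers. The HCT transcript Locus 26986 had ratios of 0.930 in pollinated and 1.47 in receptive flowers. The benzoyltransferase Locus 34592 had ratios of 8.26 in pollinated and 0.0378 in receptive flowers, on 1 to 22 reads a library. The CCR transcript Locus 16149 had ratios of 0.665 in pollinated and 1.99 in receptive flowers.

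For pollinated over receptive, Locus 34592 had ratios of 9.53 for gall flowers and 0.0436 for seed flowers, and Locus 4454 of 0.545 for gall flowers and 4.38 for seed flowers. The laccase Locus 9536 had ratios of 0.747 for gall flowers and 2.34 for seed flowers, and the laccase Locus 578 of 0.904 for gall flowers and 1.78 for seed flowers. The CAD transcript Locus 9537 had ratios of 0.526 for gall flowers and 1.13 for seed flowers, and the CCoAOMT transcript Locus 9207 of 0.679 for gall flowers and 1.27 for seed flowers. The CCR transcript Locus 8591 had ratios of 0.931 for gall flowers and 1.29 for seed flowers, and the CCR transcript Locus 16149 ratios of 0.687 for gall flowers and 2.05 for seed flowers.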

How the results depend on the processing

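Without replicates, no library could be left out and calls describe pairs of libraries. No paired analysis was possible because the labels give no replicate numbers and each flower type had 1 library at each stage. Gall and seed libraries of the same stage were compared directly in the Z-test, the exact test and the ratios. Only the additive model fitted both stages together. The 18 members called in receptive gall over receptive seed flowers numbered 10 when a ratio of at least 2 was also asked and 3 with edgeR's exact test at an assumed coefficient of variation of 0.4. The 3 were Locus 92, Locus 4454 and Locus 9536. The 9 called in pollinated gall over pollinated seed flowers numbered 25 with the Z-test on read counts, 4 with a ratio of at least 2 and 1 with the exact test. The 3 in pollinated gall over receptive gall flowers numbered 28, 1 and 0 in the same order, and the 6 in pollinated seed over receptive seed flowers 24, 3 and 0. Split by direction, the 25, 28 and 24 were 19 higher and 6 lower, 8 and 20, and 14 and 10. In receptive gall over receptive seed flowers the Z-test on read counts called 39.7% of all transcripts above the minimum higher and 49.5% lower. For the counts above no other share over all transcripts was worked out, so none is read as particular to the members. In the additive model, 0 members for gall over seed became 5 of 46 with DESeq2, beside 1103 of all 21491 transcripts. With no filter they became 7 of 76, beside 4222 of all 53609 transcripts. For pollinated over receptive, 0 became 1 of 76 with no filter (Locus 24455), beside 3489 of all 53609. The other 34 total counts of calls under alternatives stayed within 1.5 times their main count. Of 80 counts split by direction, 52 stayed within that range, 13 were larger and 15 smaller, and in receptive gall over receptive seed flowers the 0 lower calls became 6 with the Z-test on read counts and 1 with TMM scaling, the length trend removed or thinned reads.

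With TMM scaling the CAD ratio of pollinated gall over pollinated seed turned to 1.01. Of 124 family ratios under alternatives, 74 stayed within their counting interval, 49 moved beyond it and 1 reversed. The median log2 ratio of members moved to 0.59 in pollinated and 0.85 in receptive flowers (gall over seed) with TMM scaling, and to 0.54 and 0.46 with no minimum on mean RPKM. The receptive seed library, with 11584069 reads, sets the precision of every comparison it enters.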
